A study of Aspergillus luchuensis with 6 samples.

Results

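Broad unpaired start clusters are the main transcription start regions of the white koji mould that lie alone, with no main start of the opposite strand close by, and whose starts are spread over a wide stretch of DNA. They were measured by CAGE (cap analysis of gene expression), in which every tag marks the capped 5′ end of a transcript at the level of a single base. Positions holding 2 or more tags, pooled over 6 libraries, were merged along each strand across gaps of up to 20 bp. Clusters of scaffolds 1 and 2 (DF126447.1 and DF126448.1 in the deposited rows) with 100 or more pooled tags were ranked by tags, and those with a peak less than 2000 bp from a larger one of their strand were set aside, which left 1211 leading clusters. Of these, 803 had no leading peak of the opposite strand within 500 bp. The 206 members are those of the 803 (25.7%) with a width of 120 bp or more, the distance between the positions below which 0.1 and 0.9 of the summed control tags lie. The other 597 are called narrow here. The members were thus chosen by pooled tags and control widths, and these values are given as a description.

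The libraries came from rice koji, steamed rice overgrown by Aspergillus luchuensis mut. kawachii, of a control strain (ctrl4 in the labels, n = 3) and of a strain with a disrupted sirtuin D gene (sirD, n = 3). Sirtuins are NAD-dependent deacylases, many of which remove acetyl groups from histones. The sources used here give neither the age of the cultures nor any further genotype. The labels do not tie replicates to separate cultures, so p-values measure the spread between these libraries, possibly a technical one, and a difference between groups is one between these 2 strains. The table listed 3148498 to 3580777 tags per library, of which 1419744 to 1634987 lay on the scaffolds, and the broad clusters took 14.6% to 15.3% of these scaffold tags in every library. The table stops inside scaffold 2, without rows at 4748 to 10002, 47455 to 100011 and 474756 to 1000002. It names no genes, so members are given by strand and position, and the disrupted gene could not be looked up as a check of the labels.

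RNA polymerase II starts transcription at a sharply fixed base at some promoters and over a stretch of bases at others. In animals, sharp starts are typical of promoters with a TATA box, and dispersed starts of promoters without one. In budding yeast the polymerase scans downstream from where it is assembled, so that several starts per gene are common. Starts of different positions give transcripts of 1 gene that differ in the length of their 5′ leader, which can carry upstream reading frames.

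The broad clusters ranged in control width from 120 to 1058 bp, with a median of 202.5 bp and with the middle 50% at 150.2 to 279.8 bp, against a median of 68 bp over all 803 unpaired clusters. Width had no gap at the limit. The members nearest to it were those at 95649 to 95811 of scaffold 1 and 474616 to 474755 of scaffold 2 on the minus strand and, on the plus strand of scaffold 1, the cluster at 1742562 to 1742896, each of 120 bp. Just outside were the plus-strand cluster at 167204 to 167409 of scaffold 2 and that at 1431654 to 1431887 on the minus strand of scaffold 1, each of 119 bp, and a cluster of 118 bp at 449128 to 449315 on the plus strand of scaffold 2. The member at 474616 to 474755 ends at the last row before the long stretch without rows, so its extent may be cut. Peaks inside that stretch cannot be seen, so whether this member is leading and unpaired is not certain either. Scaffold 1 held 125 members (67 plus, 58 minus) and scaffold 2 held 81 (45 plus, 36 minus). In windows of 0.5 Mb with rows, broad clusters made up 23.0% to 27.6% of the unpaired clusters, so they were spread along both scaffolds.

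The stretch counted as 1 cluster depended on the joining distance. When positions were joined only within 10 bp, 4 members stayed in 1 piece, the median member fell into 5 pieces, and the largest piece held a median of 78.1% of the tags. For 69 members the largest piece held 90% or more, and for 92 it held less than 75%. The whole rule gave 92 members at 10 bp and 308 at 30 bp, and 84 and 200 of the 206 peaks lay in one of them. The members thus ran from a nearly continuous stretch to several start regions near each other.

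Within a broad cluster, starts were shared among many bases. A median member had tags at 166 positions, and its top position took 10.9% of the control tags, from 3.97% to 52.9%, with under 10% in 84 members and over 25% in 10. In narrow clusters, which had fewer tags (median 1107 pooled tags against 3179), the top position took a median of 19.9%. The cluster with the most even starts was the cluster at 1866434 to 1867109 on the minus strand of scaffold 1, where the top position held 3.97% and the width was 324 bp. The most concentrated was the cluster at 241693 to 242067 on the plus strand of scaffold 1, where 52.9% of the control tags lay on 1 base although the width was 236 bp. Positions with 5% or more of the control tags, called major here, numbered 3 in the median member and 0 in 4 members. In 82 members (39.8%) the outermost major positions were 100 bp or more apart. In 8 members, positions of 10% or more lay 100 bp or more apart, so that these clusters held more than 1 strong start.

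The top position was often not the same base in every library. It was shared by all 6 libraries in 71 members, and by the summed tags of both strains in 144 of 206. Among the 597 narrow clusters these counts were 265 and 441, so a differing top position was not particular to the members. The control peak lay at 38.3% of the way from the upstream to the downstream quantile in the median member, with the middle 50% from 7.09% to 77.4%, so that peaks sat at either edge as well as in the middle. The median was similar in narrow clusters, at 37.1%. The nearest leading peak of the opposite strand was 508 to 9814 bp away (median 1742 bp), upstream of the member in 141 (68.4%) and downstream in 65. In narrow clusters it was upstream in 399 (66.8%) and downstream in 198, a similar share. Opposite-strand tags between the 2 quantile positions amounted to 0.362% of the member's own tags there in the control (1986 against 548540) and 0.394% in the disruptant (2335 against 592677). In 51 members there were none in the control libraries, and in 8 members they exceeded 10% of the member's own tags.

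**Figure D1:**
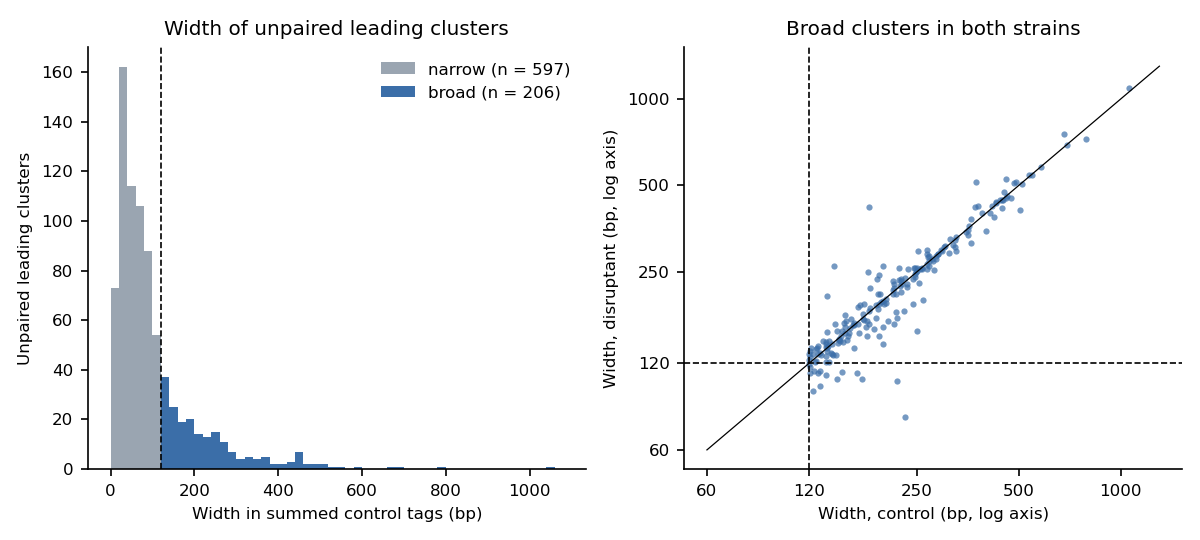
Left, number of unpaired leading clusters by width in the summed control tags (bp, bins of 20 bp), broad members in blue and narrow clusters in grey, with the limit of 120 bp dashed. Right, width of each of the 206 members in the summed control tags (x) and summed disruptant tags (y), both in bp on log axes, with the line of equal width; most points lie near the line, and 15 fall under 120 bp in the disruptant.

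Broad clusters were as a rule broad in both strains. The median width was 197 to 210.0 bp in the 3 control libraries and 197 to 206.5 bp in the 3 disruptant libraries. The summed disruptant tags gave 120 bp or more in 191 of the 206 members, and 166 reached it in each of the 6 libraries. Taking the disruptant tags for the limit would choose 204 clusters, and the 191 shared are 92.7% of the control choice and 93.6% of the disruptant choice. The disruptant width was within 10 bp of the control width in 108 members, at least 50 bp larger in 9 and at least 50 bp smaller in 12. Since the limit was set on the control, members near it can only leave in 1 direction, and no test of width was made.

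A few members differed more in width. Without overlap between the libraries of the strains, 16 members were wider and 25 narrower in the disruptant. The same count was not made for other clusters, so it does not show whether broad clusters separated more often than others. The limit on control width also bears on its direction. The cluster at 364705 to 365360 on the plus strand of scaffold 2 had widths of 231, 214 and 231 bp in control libraries against 85, 72 and 63 bp in disruptant libraries. Its 6 libraries did not overlap between strains. The cluster at 289554 to 290129 on the plus strand of scaffold 1 had widths of 142, 238 and 233 bp and 97, 109 and 110 bp, again without overlap, although control library 1 stood nearer to the disruptant than the other control libraries did. The largest gain, chosen after its values were seen, was in the cluster at 1448487 to 1449095 on the plus strand of scaffold 2, with 178, 141 and 303 bp in the control and 422 bp in each disruptant library. There the share of tags more than 50 bp downstream of the peak was 12.0% ± 1.98 in ctrl4 and 18.9% ± 0.872 in the disruptant.

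The next comparison asked whether broad start regions were used more or less in the sirD disruptant. Levels were computed by edgeR as CPM, with the TMM-scaled tag total of the tested clusters as each library's base, and were compared with edgeR's quasi-likelihood test over 4083 clusters with Benjamini-Hochberg adjustment. All 206 broad clusters passed the count filter. The libraries are bulk samples, so fewer cells with a start in use and less RNA per cell cannot be told apart. A log2 difference is the disruptant over the control. In the disruptant 42 rose (20.4%), where 10.4% of all tested clusters rose, and 34 fell (16.5%), where 14.0% of all tested clusters fell. Of the narrow unpaired clusters 82 of 597 rose (13.7%) and 108 fell (18.1%). A difference between these shares was not tested, and the broad clusters had more tags, which bears on how small a difference can pass. Changes were mostly small, with a median log2 difference of 0.71 among the 42 and −0.78 among the 34, and 11 rose and 12 fell by at least 2-fold. These 23 are 11.2% of the members, where 13.8% of all tested clusters and 14.1% of the narrow clusters passed at 2-fold or more. The median log2 difference over the 206 was 0.09, against −0.0031 over all tested clusters. The libraries of the strains did not overlap in 112 members (54.4%), against 39.7% of all tested clusters and 45.2% of the narrow clusters.

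Among the clusters that rose, the cluster at 209896 to 210160 on the minus strand of scaffold 2 had the largest difference of the 6 with the smallest p. It was at 5.28, 10.4 and 5.10 CPM in control libraries against 56.4, 42.9 and 35.4 in disruptant libraries, from 17, 34 and 15 tags and 189, 147 and 119 tags. Every disruptant library was above every control library (6.41-fold, log2 2.68, SE 0.27, adjusted p = 9.06e-07). The cluster at 324212 to 324528 on the minus strand of scaffold 2 was at 5.91, 8.53 and 5.10 CPM and at 23.0, 21.0 and 21.1, also without overlap (3.30-fold, log2 1.72, SE 0.26, adjusted p = 6.58e-05). Both were among the weak members, with 66 and 62 control tags in all, so their control shape rests on few tags.

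The other 4 were stronger in the control, and their log2 differences were smaller. The cluster at 1707353 to 1707859 on the minus strand of scaffold 1 was at 141, 166 and 125 CPM in control libraries against 393, 337 and 377 in disruptant libraries (log2 1.36, SE 0.15, adjusted p = 1.66e-06). Its width was 267 and 298 bp in the summed control and disruptant tags. The cluster at 1252666 to 1253018 on the plus strand of scaffold 2 went from 411, 382 and 363 to 704, 767 and 773 CPM (log2 0.96, SE 0.13, adjusted p = 3.03e-05) and was 136 bp wide in both strains. The cluster at 95649 to 95811 on the minus strand of scaffold 1 was at 59.1, 48.8 and 38.1 CPM and rose 2.65-fold, to 119.9, 125 and 143 CPM. The cluster at 1639195 to 1639497 on the plus strand of scaffold 2 was at 26.7, 22.2 and 20.1 CPM and rose 2.51-fold, to 49.2, 56.0 and 68.4 CPM. The edgeR adjusted p-values of these latter clusters were 7.1e-06 and 4.69e-05. In none of these 4 did the libraries overlap between strains.

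The clusters that fell included some of the strongest. The cluster at 67583 to 68159 on the plus strand of scaffold 1 had the smallest p of all members. It was at 1299, 1047 and 1227 CPM in control libraries against 370.2, 372 and 484 in disruptant libraries, which did not overlap (2.92-fold lower, log2 −1.54, SE 0.15, adjusted p = 5.78e-07). It was 296 bp wide in both strains, and its nearest leading cluster, on the minus strand with a peak 1739 bp upstream, fell as well (log2 −1.89, adjusted p = 8.58e-05). The cluster at 1307150 to 1307539 on the plus strand of scaffold 2 was at 1702, 1482 and 1603 CPM and at 800.0, 692 and 744 (log2 −1.10, SE 0.13, adjusted p = 7.43e-06), while its nearest leading neighbour, 1131 bp away, did not pass the test (log2 −0.14, adjusted p = 0.54). The cluster at 17395 to 17782 on the plus strand of scaffold 2 was at 2001, 1520.0 and 2037 CPM and at 650.3, 731 and 970.3 (log2 −1.24, SE 0.16, adjusted p = 1.56e-05), and its shape changed too, as given below.

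The other 3 of the lower clusters with the smallest p were weaker and lay on scaffold 2. The cluster at 1466236 to 1466500 (minus strand) was at 80.2 ± 21.8 CPM in ctrl4 and 22.4 ± 4.36 CPM in the disruptant (3.57-fold lower, the largest fall of the 6). The cluster at 217304 to 217583 (plus strand) was at 38.0 ± 7.51 CPM in ctrl4 and 12.1 ± 1.41 CPM in the disruptant, and the cluster at 1901062 to 1901367 (plus strand) at 219.9 ± 35.2 CPM in ctrl4 and 101 ± 21.6 CPM in the disruptant (SD, n = 3). Their edgeR adjusted p-values were 3.23e-06, 2.09e-05 and 5.93e-05, and the libraries of the strains did not overlap in any of them. Of the 34 members that fell, 12 had a nearest leading cluster that fell and 3 had one that rose. Of the 42 that rose, 9 had a nearest leading cluster that rose and 7 had one that fell. Of the 108 narrow clusters that fell, 36 had a nearest leading cluster that fell and 11 had one that rose. Of the 82 narrow clusters that rose, 13 had one that rose and 11 had one that fell. A difference between members and narrow clusters was not tested.

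**Figure D2:**
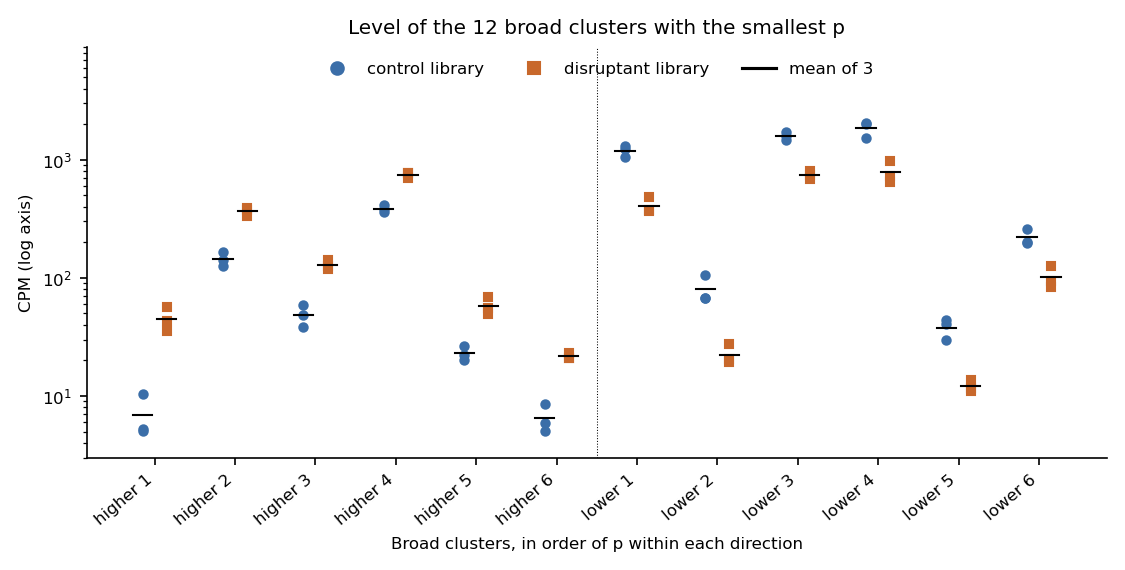
Level in CPM (log axis) of the 6 broad clusters that rose and the 6 that fell with the smallest p, in order of p within each direction. Circles are the 3 control libraries, squares the 3 disruptant libraries and bars their means; in each of the 12 the libraries of the strains do not overlap.

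The 10 strongest broad clusters, by mean control level, were at 1595 to 2576 CPM, and most differed little between strains. The strongest, the cluster at 1007880 to 1008736 on the plus strand of scaffold 1, was at 2576 ± 236 CPM in ctrl4 and 2248 ± 61.0 CPM in the disruptant (SD, n = 3, log2 −0.20, SE 0.13, adjusted p = 0.293) and was 159 bp wide in both. The cluster at 1288963 to 1289393 on the minus strand of scaffold 2 was at 2087 ± 395 CPM in ctrl4 and 2274 ± 35.0 CPM in the disruptant (adjusted p = 0.583 by edgeR), with control library 1 at 1650.2 CPM and the other control libraries at 2189 and 2421. The cluster at 1212838 to 1213901 on the minus strand of scaffold 2 was at 2606, 2571 and 1432 CPM in the disruptant libraries against 1839, 1986 and 1662 in the control, so disruptant library 3 lay below every control library while the others lay above. It did not pass the test with all libraries (edgeR adjusted p = 0.297) and passed without that library (log2 0.53, adjusted p = 0.0181).

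On the minus strand, the clusters at 1009050 to 1009714 of scaffold 2, 440812 to 441757 of scaffold 1 and 1696340 to 1696988 of scaffold 2 also did not pass (edgeR adjusted p of 0.187, 0.228 and 0.226). Of the other 4, those at 17395 and 1307150 of scaffold 2 fell as given above. The cluster at 1269503 to 1270529 on the minus strand of scaffold 2 was at 1933 ± 203 CPM in ctrl4 and 1388 ± 218 CPM in the disruptant (log2 −0.48, SE 0.14, adjusted p = 0.0188), and the cluster at 1100943 to 1102913 on the plus strand of scaffold 1 at 1877 ± 106 CPM in ctrl4 and 1441 ± 66.0 CPM in the disruptant (log2 −0.38, SE 0.13, adjusted p = 0.0351). The call of the former was lost without control library 3, disruptant library 1 or disruptant library 2 (adjusted p of 0.0553, 0.0970 and 0.149), and that of the latter without any 1 library but control library 1 (0.0776 to 0.165).

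The third comparison asked whether starts moved within broad clusters. The mean start, the average position of a library's tags in a cluster, was compared with limma over the 948 leading clusters that had 30 or more tags in each library, and 184 broad clusters could be tested. It moved in 47 of them (25.5%), downstream in 31 and upstream in 16, where 8.02% of all tested clusters moved downstream and 4.96% upstream (13.0% in all). Of 434 narrow clusters tested, 38 moved (8.76%). A difference between these shares was not tested. Clusters that moved had more tags (median 7618 pooled tags among the 47, 2900 among the other 137), and the part of depth in the count was not tested. The size of the move was 7.01 to 88.7 bp (median 21.8 bp). The positions of tags in a broad cluster had a median SD of 82.6 bp over all members. The median move was thus small against that spread, while the largest was not. The count depended on the measure: with the median start 7 moved downstream and 6 upstream, 10 of them among the 47. Without disruptant library 2, 9 moved upstream and 22 downstream.

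The smallest p was found in the cluster at 932334 to 932873 on the plus strand of scaffold 1, which holds 2 groups of starts 206 bp apart. In the control the most used base lay 206 bp upstream of the most used base in the disruptant. The mean start was at −89.8, −104 and −98.6 bp from the pooled peak in control libraries against −40.5, −54.3 and −51.9 bp in disruptant libraries, so that it moved downstream in every disruptant library (48.5 bp, SE 3.94, limma adjusted p = 0.000141). Its median start differed by 139.7 bp and did not pass (adjusted p = 0.169). Of the tags, starts more than 50 bp upstream of the peak held 54.1% ± 3.24 in ctrl4 and 31.5% ± 3.75 in the disruptant (SD, n = 3), and starts within 50 bp of it 41.1% ± 3.16 in ctrl4 and 61.2% ± 3.73 in the disruptant. As levels, the upstream group was at 538 ± 40.3 CPM in ctrl4 and 483 ± 40.9 in the disruptant, and the group at the peak at 410.1 ± 55.4 CPM in ctrl4 and 946 ± 120 in the disruptant. The cluster as a whole rose (996 ± 76.8 CPM in ctrl4 and 1541 ± 119.8 CPM in the disruptant, edgeR adjusted p = 0.00161), while the mean of its upstream group was not higher. The width did not show the move, at 247 bp in ctrl4 and 246 bp in the disruptant. Levels of groups within a cluster, here and below, were not tested.

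The cluster at 17395 to 17782 on the plus strand of scaffold 2, whose level fell 2.36-fold, moved the other way. The mean start was at −20.7, −23.1 and −21.7 bp in control libraries against −38.3, −33.5 and −34.7 bp in disruptant libraries (−13.7 bp, SE 1.27, limma adjusted p = 0.000255), or −8.05 bp apart within the pooled 0.05 and 0.95 quantiles (adjusted p = 0.000922). Its main group at the peak went from 1618 ± 257 to 626 ± 139 CPM and the minor group upstream from 224 ± 30.9 to 154 ± 30.1 CPM (SD, n = 3), so the upstream share was 12.1% ± 0.397 in ctrl4 and 19.7% ± 1.52 in the disruptant.

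Starts also moved where the level of the whole cluster did not pass the test. In the cluster at 1200388 to 1201234 on the plus strand of scaffold 2 the mean start was at 98.3, 92.4 and 69.5 bp in the control and at 175 to 176 bp in each disruptant library (88.7 bp, SE 8.94, limma adjusted p = 0.000286). The share more than 50 bp downstream of its peak was 31.2% ± 2.65 in ctrl4 and 52.5% ± 2.01 in the disruptant, with a level of 156 ± 8.70 CPM in ctrl4 and 181 ± 28.3 CPM in the disruptant (edgeR adjusted p = 0.306). In the cluster at 401602 to 402204 on the minus strand of scaffold 1 the mean start lay at −114, −139 and −119 bp and at −203, −199.9 and −186 bp, upstream in each disruptant library (−72.3 bp, SE 7.95, limma adjusted p = 0.000375), while the difference in its median start, −143 bp, did not pass (adjusted p = 0.0523). Starts near its peak went from 145 ± 12.2 to 89.8 ± 6.84 CPM, and those upstream were at 113 ± 15.4 CPM in ctrl4 and 122 ± 6.74 in the disruptant. In the cluster at 1032001 to 1032579 on the plus strand of scaffold 1 the move was smaller but even over libraries, from −14.1, −15.3 and −16.7 bp to 0.256, 0.837 and 0.997 bp (16.1 bp, SE 2.00, limma adjusted p = 0.000816), and its median start moved by 5.33 bp (adjusted p = 0.00613).

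**Figure D3:**
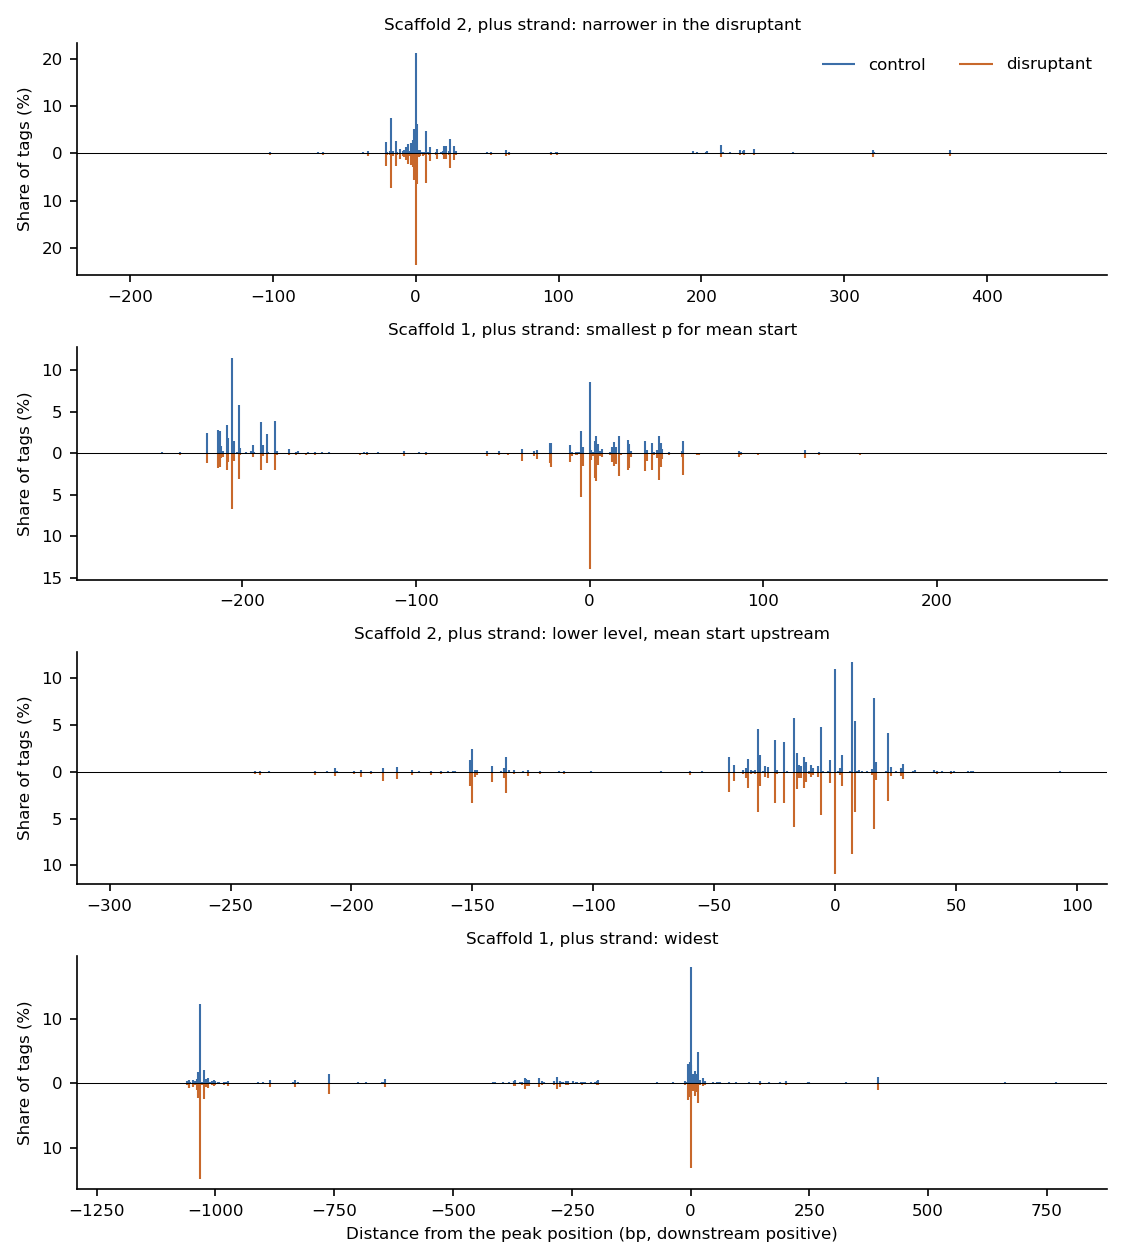
Share of a strain's tags at each position (%, control upward in blue, disruptant downward in orange; tags summed over 3 libraries) by distance from the pooled peak in bp, for the plus-strand clusters at 364705 (scaffold 2), 932334 (scaffold 1), 17395 (scaffold 2) and 1100943 (scaffold 1), from top to bottom. In the second panel the group around the base 206 bp upstream is the larger in the control and the group at 0 the larger in the disruptant.

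Single start positions were compared within clusters with edgeR's diffSpliceDGE, which asks whether a position's share of its cluster differs between strains. Usage changed in 10 of 153 broad clusters that could be tested (6.54%), against 1.79% of the 1286 clusters tested in all, and in 4 of 388 narrow clusters (1.03%). The mean start moved in 9 of the 10, and the other, named after its values were seen, was the cluster at 136517 to 136945 on the plus strand of scaffold 1 (limma adjusted p = 0.315). The count was 3 to 6 whichever library was left out. The smallest p was in the cluster at 1696340 to 1696988 on the minus strand of scaffold 2 (adjusted p = 3.05e-06). Its share of tags more than 50 bp downstream of the peak was 20.2% ± 5.47 in ctrl4 and 13.3% ± 0.605 in the disruptant, with control library 1 at 26.6% and the other control libraries at 17.0% and 17.2%. Its mean start was farther upstream in each disruptant library (−20.6 bp, SE 5.40, limma adjusted p = 0.03), a call lost without any 1 of the disruptant libraries (0.0513 to 0.109), and its median start did not differ between the strain means (0 bp). Within the pooled 0.05 and 0.95 quantiles its mean start differed by −14.1 bp and did not pass (limma adjusted p = 0.11). The base at its peak held 40.8% in the control and 42.7% in the disruptant.

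In the narrowing cluster at 364705 to 365360 of scaffold 2, usage changed with an adjusted p of 5.3e-05. Starts within 50 bp of its peak were at 1198 ± 68.4 CPM in ctrl4 and 1735 ± 184 in the disruptant, and those farther downstream at 260.4 ± 40.5 CPM in ctrl4 and 215 ± 46.5 in the disruptant. The mean of the main group was thus higher in the disruptant while that of the downstream tail was not. The cluster as a whole rose (log2 0.42, edgeR adjusted p = 0.0278), a call lost without control library 2 or 3 or disruptant library 1 (0.0771 to 0.102). The cluster at 289554 to 290129 of scaffold 1 had the tail on the other side. Starts more than 50 bp upstream were at 283 ± 16.4 CPM in ctrl4 and 244 ± 15.6 in the disruptant, and starts near the peak at 647 ± 122 CPM in ctrl4 and 989 ± 21.0 in the disruptant (usage adjusted p = 0.000325, which became 0.200 to 0.413 without control library 2, control library 3 or disruptant library 2). Its level as a whole rose (log2 0.44, edgeR adjusted p = 0.0209), a call lost without the same libraries (0.05985 to 0.0876).

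The cluster at 932334 also changed in usage (adjusted p = 0.00181), a call lost without control library 2 or disruptant library 1 (0.363 and 0.189). In the cluster at 963864 to 964341 on the plus strand of scaffold 1, which fell from 334 ± 14.0 to 231 ± 10.1 CPM (edgeR adjusted p = 0.00532), the share more than 50 bp downstream of the peak was 14.5, 14.5 and 12.8% in control libraries against 24.0, 34.7 and 33.9% in disruptant libraries. Every disruptant library was higher, with library 1 nearest to the control. Its usage call (adjusted p = 0.00224) was lost without control library 2 or disruptant library 2 or 3 (0.107 to 0.182). Its mean start moved downstream by 48.4 bp (SE 7.04, limma adjusted p = 0.00164), by 31.2 bp within the pooled 0.05 and 0.95 quantiles (adjusted p = 0.0169), and its median start differed by 3.67 bp, which did not pass (adjusted p = 0.858).

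**Figure D4:**
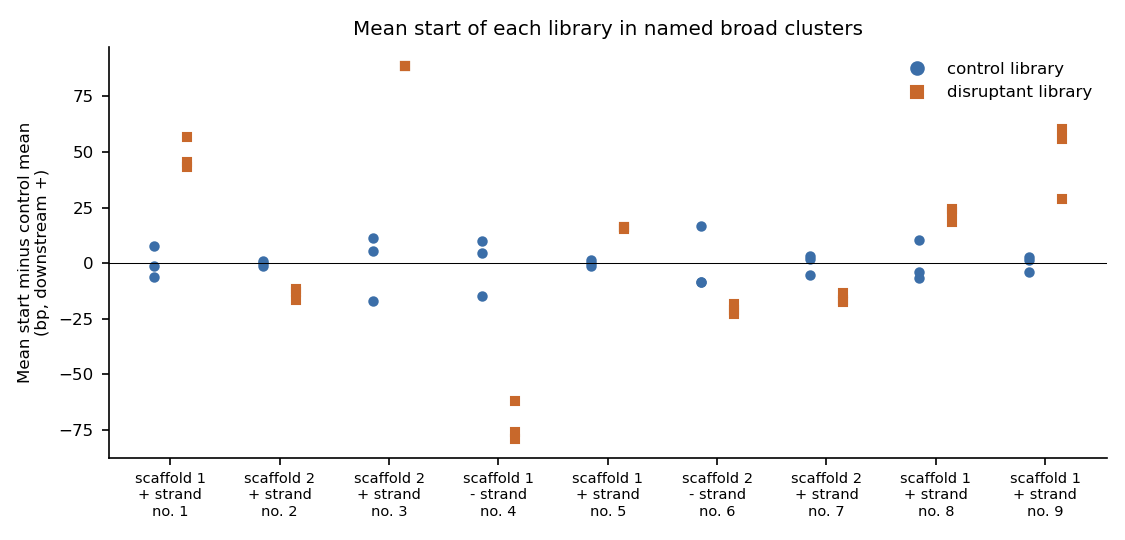
Mean start of each library minus the mean of the control libraries (bp, downstream positive) in 9 named broad clusters. They start, from left to right, at 932334, 17395, 1200388, 401602, 1032001, 1696340, 364705, 289554 and 963864; in each, the 3 disruptant libraries (squares) lie apart from the 3 control libraries (circles).

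The 5 widest clusters differed in make-up. The widest, at 1100943 to 1102913 on the plus strand of scaffold 1, had major positions 1032 bp apart, and its largest piece with positions joined within 10 bp held 45.7% of the tags. Its starts within 50 bp of the peak were at 812 ± 79.3 CPM in ctrl4 and 482 ± 42.8 in the disruptant, and those upstream at 893 ± 34.2 CPM in ctrl4 and 812 ± 21.7 in the disruptant. The mean start was accordingly farther upstream in the disruptant (−79.3 bp, SE 17.1, limma adjusted p = 0.0131), with control library 1 at −379 bp and disruptant library 1 at −386 bp, so that the strains did not overlap but came close. This call was lost without control library 2, disruptant library 2 or disruptant library 3 (0.0512 to 0.0605), and with the median start (−224 bp, adjusted p = 0.172). The next, at 1189017 to 1190013, had widths of 776, 798 and 794 bp in control libraries against 721, 664 and 688 bp in disruptant libraries and rose 1.32-fold (adjusted p = 0.0397 by edgeR), a call lost without any 1 library but disruptant library 2 (0.0539 to 0.113).

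Of the other 3 widest, all on the plus strand of scaffold 1, the cluster at 1920374 to 1921354 rose from 83.1 ± 17.1 to 181 ± 28.8 CPM (SD, n = 3, log2 1.12, SE 0.17, adjusted p = 7.68e-05) and kept a width of 692 and 691 bp. The cluster at 591588 to 592707 passed the test for neither level nor mean start (edgeR adjusted p = 0.922, limma adjusted p = 0.304). The cluster at 1837365 to 1838334 had no position with 5% of the control tags. Its mean start was at 237, 233 and 237 bp in control libraries against 351, 291 and 318 bp in disruptant libraries (84.4 bp, SE 13.4, limma adjusted p = 0.0022). Between its quantile positions opposite-strand tags, summed over 3 libraries, numbered 73 in ctrl4 and 252 in the disruptant, beside 1350 and 1790 tags of its own strand. The 252 tags are the highest disruptant number of any member, and the difference was not tested. Its level rose (log2 0.42, edgeR adjusted p = 0.0293), a call lost without control library 2 or 3 or disruptant library 2 or 3 (0.0868 to 0.112).

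**Figure D5:**
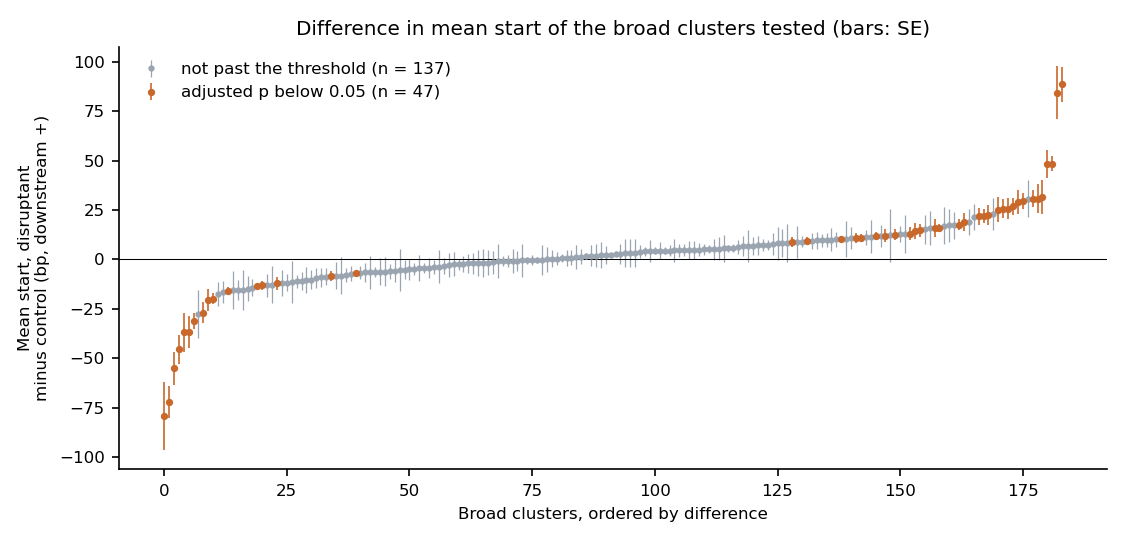
Difference in mean start (disruptant minus control, bp, downstream positive) with its SE for the 184 broad clusters tested, ordered by size. Orange points passed the limma test (47) and grey points did not (137); passing points are found on both sides of 0, 31 above and 16 below.

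Width classes of the members differed in depth as well as in calls. Of 50 members 120 to under 150 bp wide (median 1017 pooled tags), 6 rose, 7 fell and the mean start moved in 5 of 43 tested. Of 51 members 150 to under 200 bp wide (median 1394 tags), 10 rose, 10 fell and 12 of 39 moved. Of 60 members 200 to under 300 bp wide (median 3904 tags), 16 rose, 12 fell and 16 of 57 moved. Of 45 members 300 bp wide or more (median 6141 tags), 10 rose, 5 fell and 14 of 45 moved. The median log2 difference of these classes was −0.09, 0.02, 0.15 and 0.10. Depth and width rose together over the classes, so their parts in these counts cannot be told apart.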

How the data were processed

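CAGE tags of 6 rice koji libraries were deposited by the authors as 1 table of raw tag counts per position and strand, with 1 column per library. FastQC, BWA and bedtools were used, per the submitters' processing notes; the sources used here name no mapping settings, filters or genome build. The table has 1048575 rows, and 469501 of them are 0 in every library.

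From these counts, clusters were built over all rows by the joining rule given above. Positions, also those of the stretches without rows, are printed with 1 added to the number that the table gives. Levels were tested with edgeR 4.0.16 (TMM, filterByExpr, quasi-likelihood test), start usage with diffSpliceDGE on positions with 10 or more pooled tags that pass filterByExpr, and mean starts with limma 3.58.1 with a variance trend, in R 4.3.3. Every p-value was adjusted by Benjamini-Hochberg over all clusters tested, with a threshold of 0.05; ± is the SD of 3 libraries. Each fit was run on simulated counts drawn from means of these data, with fitted spreads for level and a fixed spread for usage and mean start. Such counts test only whether a fit finds a change put in. They do not bear on the calls given here. Named members were the 10 with the highest control level, the 5 widest, the 6 risen and the 6 fallen clusters of smallest p, the 5 with the smallest p for usage and for mean start, and the 3 on each side of the width limit. Of those just under it, the cluster of 118 bp tied with another. The members, tests and this rule were chosen with earlier results of these data known. Alternatives were other scalings, filters, thresholds, joining distances and quantiles, DESeq2 1.42.0, a replicate block and leaving out each library.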

Additional observations from a re-analysis of the deposited data

How the results depend on the processing

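The number of broad clusters depended most on how a cluster was drawn: 79 with the quantiles 0.25 and 0.75 and 92 with positions joined within 10 bp, against 156 to 308 under the other 9 settings. Joining within 10 bp left 20 clusters higher and 11 lower in level. Asking for at least 2-fold left 11 and 12. Under the other level settings 29 to 58 were higher and 26 to 42 lower, with 43 and 31 by DESeq2. Leaving out 1 library gave 29 to 40 higher and 26 to 36 lower. Mean starts were farther downstream in 7 clusters and farther upstream in 6 by the median of positions, in 16 and 10 without a variance trend, and in 16 and 9 at an adjusted p below 0.01. Leaving out 1 library gave 21 to 34 downstream and 9 to 16 upstream. A mean restricted to the pooled 0.05 and 0.95 quantiles, chosen after seeing the data, gave 27 and 14. Usage changed in 3 clusters without the filter on low counts, in 6 at an adjusted p below 0.01, and in 3 to 6 when 1 library was left out. The cause of these differences was not tested. With the replicate block, level was higher in 46 and lower in 36 clusters, mean starts lay farther downstream in 38 and farther upstream in 19, and usage changed in 12. Libraries that share a number correlated by 0.0937, 0.0590 and 0.0418 in their deviations over 4083 clusters. Libraries of the 2 strains with different numbers correlated by −0.0962 to 0.0458. The labels state no pairs, so the main tests did not take the numbers as pairs. Whether the numbers mark a shared batch was not tested.

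Of the named clusters, the level of 1288963 (scaffold 2, minus) changed sign without control library 1 (log2 −0.033, with −0.033 to 0.24 when 1 library was left out), and that of 591588 (scaffold 1) without control library 1 or disruptant library 3 (−0.060 and −0.013, with −0.060 to 0.12 when 1 library was left out). The mean start of 1189017 (scaffold 1) changed sign without control library 1 or disruptant library 2 (5.10 and 3.04 bp, with −13.1 to 5.10 bp when 1 library was left out). None of these passed its test under any setting. Without the filter, the level calls at 1269503 and 364705 of scaffold 2 were lost (edgeR adjusted p of 0.0629 and 0.130). So were those at 1100943, 1189017, 1837365 and 289554 of scaffold 1 (0.265, 0.251, 0.227 and 0.1045). Usage calls at 289554, 932334 and 963864 of scaffold 1 were lost too (0.0781, 0.0959 and 0.495). With RLE scaling the level call at 1100943 was lost (edgeR adjusted p = 0.0512). With total tags only, those at 1189017 and 1837365 were lost (0.0510 and 0.0603). By the median of positions, the mean-start calls at 932334, 401602, 289554, 963864 and 1100943 of scaffold 1 and 1696340 and 364705 of scaffold 2 were lost (limma adjusted p of 0.0523 to 1), with 0 bp between the strains in both of the last-named. Without a variance trend, those at 1696340, 289554 and 1100943 were lost (0.162, 0.0611 and 0.102). The 12 clusters named for the smallest p in level passed under the other scalings, the filter, tool, scaffold and replicate block settings and without each library; 1 of them, at 1252666 of scaffold 2, was under 2-fold (log2 0.96). Depth limits the weak members: 22 of 206 had too few tags for the mean start, and 153 could be tested for usage.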
